A study of Mus musculus with 12 samples.

Results

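The response of wild-type mouse macrophages to R848 was measured on 6 arrays, 3 from cells given R848 for 4 h and 3 from cells given saline, out of 12 arrays in the study. The members are the arrays whose titles name wild-type cells with R848 or with saline, and every array row that carries 1 gene symbol was followed in them. The cells were bone marrow-derived macrophages (BMDMs), which are bone marrow cells grown into macrophages in culture, here in medium with serum and 30% L929-conditioned medium, a source of the growth factor M-CSF. The labels give the mice of these groups only as wild type, with no strain, age or sex, and give no time for saline. They do not say whether the 3 arrays of a group come from separate mice or cultures, so the p-values carry only the scatter among these arrays, and that scatter may be purely technical. The other 6 arrays hold cells of Rasgef1b fl/fl mice with a Cre recombinase driven by Vav, a promoter active in blood-forming cells, under the same treatments. They add to the estimate of the spread and are otherwise used only for a short check at the end.

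R848 (resiquimod) is a small imidazoquinoline that activates Toll-like receptor 7 (TLR7) in mouse cells, a receptor in endosomes that senses single-stranded RNA. Bound TLR7 recruits the adaptor MyD88 and IRAK kinases, and the ubiquitin ligase TRAF6 then activates the kinases that release NF-kB and drive the MAP kinases. The macrophage answers with cytokines, chemokines and antimicrobial enzymes, and with inhibitors that end the signal. The comparison asks which transcripts differ between stimulated and unstimulated wild-type cells after a few hours, and in which direction.

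Expression values are log2 intensities from 250 ng of total RNA per sample, normalised together by RMA, a method that corrects background, equalises the arrays and sums the probes of a row. A difference of 1 is a 2-fold difference. A mean under 4.35, the highest of the arrays' 40th percentiles, is called dim below, and a fold change from a dim level may be understated. Differences are always between arrays for 1 gene. Where genes are ranked by level, the rank is by array signal, which also depends on the probes and is no measure of which gene has more RNA. A gene passed the threshold when limma's Benjamini-Hochberg adjusted p was under 0.05 over 14079 genes tested.

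The arrays fell apart by treatment. Pairs of arrays given the same treatment correlated at 0.9909 to 0.9964 across genes, pairs given different treatments at 0.928 to 0.9332, and the first principal component of the 6 arrays held 88.52% of the variance. Of 17 macrophage markers on the array, Cd163 alone was dim with both treatments, while Adgre1 (F4/80), Csf1r, Cd68, Lyz2 and Itgam stood between 10.51 and 12.09 in both groups. With R848, Mertk (-1.79), Mrc1 (-0.76), Csf1r (-0.34) and Fcgr1 (-0.29, not past the threshold after centring on the tested genes, adjusted p = 0.0889) were lower, Cd14 (0.67) and Adgre1 (0.32) were higher, and 10 of the 16 markers tested did not pass. Many defining markers of other cells were dim with both treatments, but not all. Dim were 5 of 9 T cell markers on the array: Cd3d, Cd3e, Cd3g, Cd2 and Cd8a. So were 8 of 10 B cell markers, among them Cd79a, Ms4a1, Pax5, Ebf1 and Blk. The same held for 10 of 15 neutrophil markers, including Ly6g, Mpo, Camp, Ltf, Ngp and S100a8. For NK cells it was 7 of 9, including Ncr1, Eomes, Gzma, Gzmb, Klrk1 and Klrd1. For mast cells and basophils it was 9 of 10, including Cpa3, Kit, Fcer1a and Ms4a2. Of 11 dendritic cell markers only Zbtb46, Ccr9 and Itgae were dim with both treatments, the list's mean level ran from 5.60 to 5.72 with saline and from 5.56 to 5.59 with R848, and Cd209a read 8.70 with saline and 8.75 with R848. A few genes of these lists that were above the dim limit moved: Cd28 (-1.22), Cd24a (-1.05) and Cd4 (-0.33) fell, the fibroblast and endothelial genes Kdr, Pdgfrb and Pecam1 rose by 0.51, 0.47 and 0.33, and Vwf (-0.33) fell. The mean level of the fibroblast and endothelial list ran from 4.69 to 4.80 with saline and from 4.80 to 4.84 with R848. Of its 14 markers on the array only 4, Dcn, Lum, Pdgfra and Tek, were dim. The others were above the dim limit in both groups. Whether other cells had a part in any result was not tested. In bulk cultures such as these, fewer cells that carry a transcript and less of it per cell cannot be told apart.

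R848 shifted 5387 of 14079 genes (38.3%) past the threshold, 2062 higher (14.6%) and 3325 lower (23.6%), shares to set beside each list count below. The large changes ran the other way round. At 2-fold or more there were 539 genes higher (3.83%) and 477 lower (3.39%), at 4-fold or more 168 higher and 46 lower, at 8-fold or more 72 higher and 7 lower, and at 32-fold or more 13 higher and 0 lower. In none of the 1016 genes that changed at least 2-fold (7.22%) did the 3 saline and 3 R848 arrays overlap, whereas 6776 of all genes (48.1%) had groups that did not overlap. The median SD over 3 arrays was 0.10 with saline and 0.09 with R848, and 2583 of the genes past the threshold changed by less than 0.5. The split into higher and lower rests on how the arrays are scaled. Higher genes made up 38.3% of the calls with the deposited values, 48.5% after cyclic loess and 62.2% after centring each array on the median of the tested genes, and the median change was -0.02, 0.02 and 0.11 in turn. Every one of the 1016 genes stayed past the threshold under each of these scalings, which genes chosen for large changes could hardly fail to do. The count at 2-fold or more was 979 after cyclic loess and 984 after centring on the tested genes. Of the raised genes, 47 were dim with saline, and of those lowered, 24 were dim with R848. Of the 10 highest genes with saline, Rn7sk, Ctsb, B2m, Fth1 and Lpl differed by -0.06, -0.12, -0.01, 0.05 and -0.03 and did not pass as deposited.

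**Figure D1:**
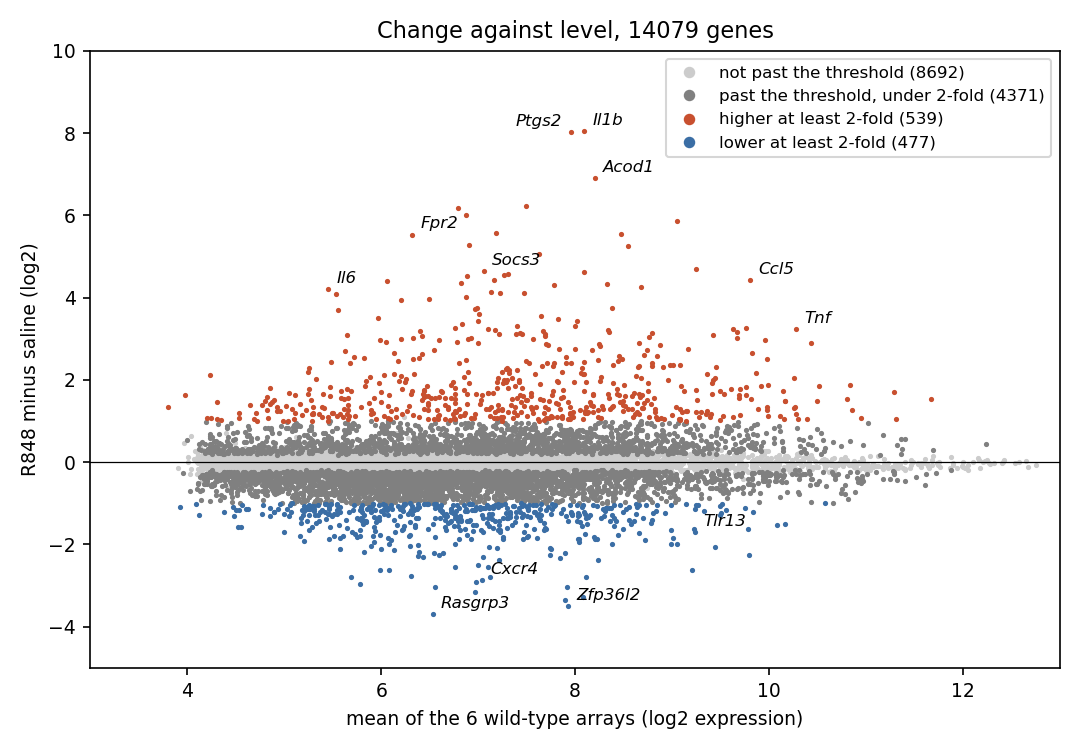
Each point is 1 of 14079 genes, with its mean over the 6 wild-type arrays on the horizontal axis (log2 expression) and its change with R848 on the vertical axis (log2, R848 minus saline). The 539 genes raised at least 2-fold reach 8.04 for Il1b, and the 477 lowered at least 2-fold reach -3.70 for Rasgrp3.

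Changes of at least 2-fold were counted most often among the brightest genes. The genes were ranked by their mean over the 6 wild-type arrays and cut into 4 classes. That mean includes the R848 arrays, so a large change itself moves a gene in the ranking. In the dimmest class 23 of 3534 rose and 19 fell at least 2-fold, and in the brightest 269 of 3508 rose and 150 fell. In the 2 classes between, lowered genes outnumbered raised ones, with 78 higher and 113 lower of 3506, and 169 higher and 195 lower of 3531.

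The receptor that R848 binds was slightly lower after stimulation with the deposited scaling, and its adaptor Myd88 was higher. Tlr7 read 8.87, 8.91 and 9.05 on the saline arrays and 8.66, 8.57 and 8.58 on the R848 arrays, a fall by 0.34 ± 0.08 (SE, adjusted p = 0.00428). Its relative Tlr8 went from 9.84 to 10.10, a difference of 0.26 that did not pass (adjusted p = 0.0777). Both calls depended on the scaling: centred on the tested genes, Tlr7 changed by -0.21 (adjusted p = 0.0571) and Tlr8 by 0.39 (adjusted p = 0.0104), and with the 6 wild-type arrays alone Tlr8 passed as well (adjusted p = 0.0358). The 2 sets of arrays did not overlap for either gene, but neither did they in 48.1% of all genes. Tlr13, an endosomal receptor for bacterial ribosomal RNA, read 10.05, 10.11 and 10.10 with saline and 8.52, 8.34 and 8.27 with R848. That change of -1.71 in Tlr13 was the largest fall in the TLR7 chain, and Tlr9, the receptor for unmethylated DNA, fell by 0.52. Of the chaperones that carry these receptors to endosomes, Cnpy3 (-0.56) and Hsp90b1 (-0.23) fell, though Hsp90b1 did not pass after centring on the tested genes (-0.10, adjusted p = 0.20), while Unc93b1 (-0.04) did not pass.

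Among the kinases and adaptors that relay the signal, the IRAK family split. Irak2, a kinase-like member that sustains signalling, read 7.56, 7.22 and 7.05 with saline and 9.28, 9.25 and 9.20 with R848, a rise of 1.97 ± 0.10 (SE). Irak3 (IRAK-M), which holds the pathway back, read 8.15, 8.17 and 8.19 with saline and 9.98, 9.99 and 10.06 with R848, a rise of 1.84. Both groups of 3 lay far apart in each gene. Irak1, a kinase near the start of the chain, changed by -0.32 with groups that met (7.36 to 7.69 against 7.05 to 7.36), and the call was lost after cyclic loess, after centring, and without saline array 1, R848 array 2 or R848 array 3 (adjusted p of 0.0939 to 0.174). Myd88 rose by 0.77, the TAK1-binding protein Tab2 by 0.88 and the IkB kinase Ikbkb by 0.51, Tab1 fell by 0.52, and Traf6 (0.07), Map3k7 (0.00), Tab3 (0.05), Ikbkg (0.10), Btk (-0.19), Slc15a4 (-0.19) and Irf7 (-0.04) did not pass. Over the 21 members of the whole chain tested, receptors and chaperones included, 5 were higher (23.8%) and 7 lower (33.3%), beside 14.6% and 23.6% of all genes. The 5 higher were Irak2, Irak3, Myd88, Tab2 and Ikbkb, all relay genes, and of the lower ones only Irak1 and Tab1 were relay genes. After centring on the tested genes the order in the whole chain turned, with 7 higher and 4 lower. Irak4 and Irf5 were not analysed here.

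Receptors for bacterial ligands changed as well. Tlr2, which senses bacterial lipoproteins, read 5.52, 5.66 and 5.76 with saline and 8.77, 8.76 and 8.78 with R848, a rise of 3.12 (8.71-fold). Its partners followed in the same direction, Tlr1 with 1.62 and Tlr6 with 0.96. Tlr4, the receptor for lipopolysaccharide, read 7.39, 7.53 and 7.59 with saline and 6.63, 6.70 and 6.61 with R848, a fall by 0.86, while its co-receptors Cd14 and Ly96 rose by 0.67 and 0.49. Cd180 (-0.40) and Ly86 (-0.55), which form a TLR4-like complex, fell. The adaptors Ticam2, Tirap and Ticam1 rose by 1.38, 0.70 and 0.64, and of 14 members tested 9 were higher and 3 lower under the deposited scaling, with Tlr5 (-0.17) and Lbp (0.12) not past the threshold.

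**Figure D2:**
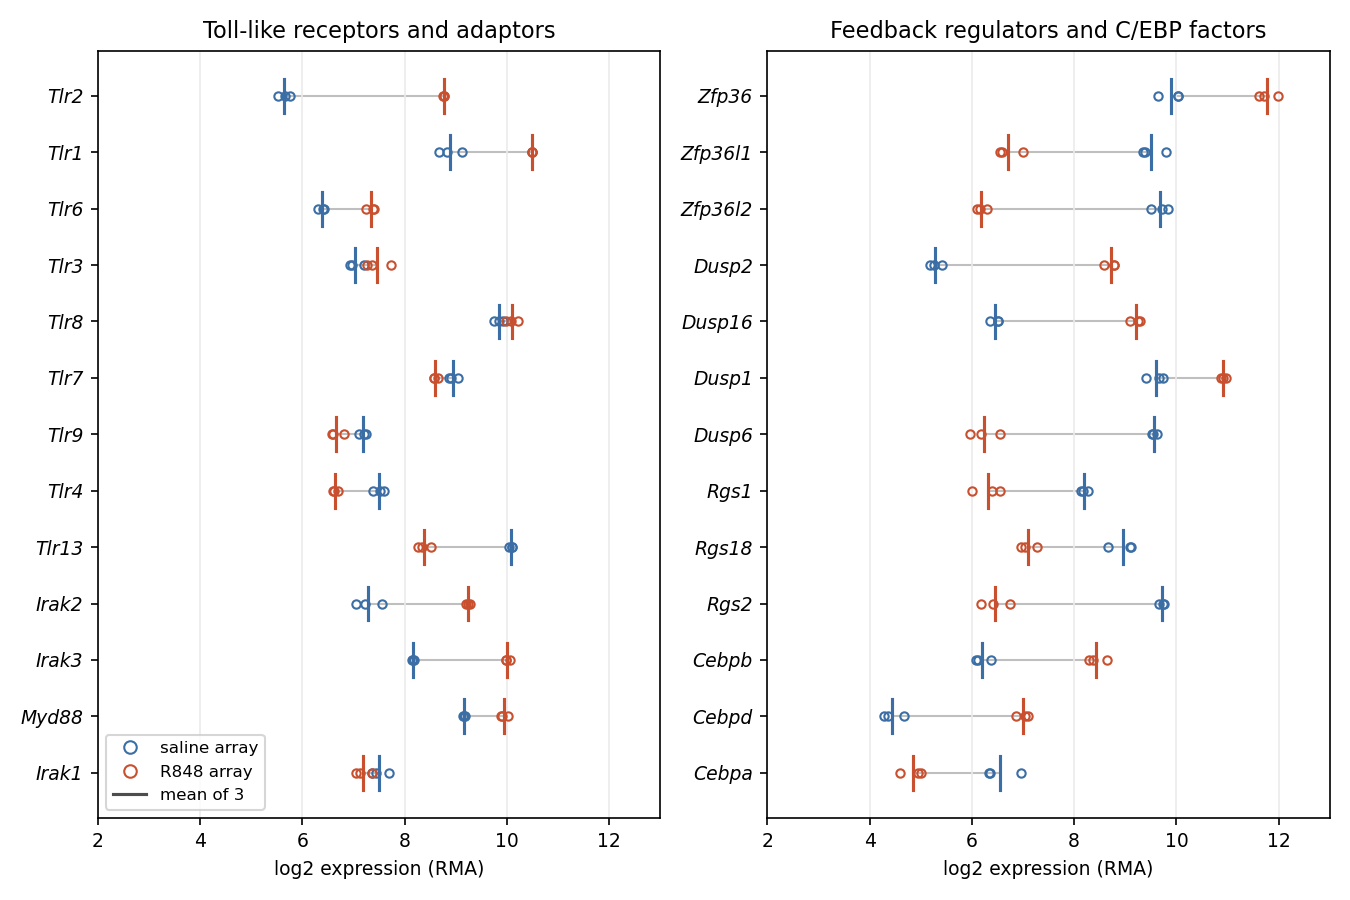
Each circle is 1 array, the vertical bars are means of 3 arrays and the horizontal axis is log2 expression. Among Toll-like receptors, Tlr2, Tlr1 and Tlr6 lie to the right with R848 and Tlr13, Tlr4 and Tlr9 to the left, and in the other panel Zfp36 lies apart from Zfp36l1 and Zfp36l2, Dusp6 from Dusp1, Dusp2 and Dusp16, and Cebpa from Cebpb and Cebpd.

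The NF-kB system rose almost as a whole. Of 19 subunits, IkB proteins and their regulators tested, 16 were higher and 0 lower, with a median change of 2.05 against -0.02 over all genes, and the counts were the same under every scaling. Nfkbia, which encodes the inhibitor IkB alpha, read 7.80, 7.82 and 7.99 with saline and 10.99, 11.02 and 10.89 with R848, a rise of 3.10 ± 0.09 (SE). Nfkbiz, an atypical nuclear IkB that is needed for secondary cytokine genes, went from 6.40, 6.56 and 6.72 to 10.85, 10.85 and 10.72. The 2 groups lay far apart, and the change of 4.25 in Nfkbiz led the list.

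Subunits with a transactivation domain differed widely in size of change. Rel rose by 2.05 (4.15-fold) and Relb by 1.54, but Rela, read at 9.76 to 10.06 with saline, by 0.52. Nfkb2, the precursor of p52, rose by 2.74 and Bcl3, which pairs with p50 and p52, by 3.15. Nfkb1 was not analysed here. The further inhibitors Nfkbie and Nfkbib rose by 2.46 and 1.55, the ubiquitin-editing enzyme Tnfaip3 (A20) by 3.74, and its partners Tnip1 and Tnip3 by 3.17 and 1.71. Traf1, Traf2, Tnfaip2 and the deubiquitinase Otulin rose by 3.11, 1.69, 3.02 and 0.38, and Nfkbid (0.15), Tnip2 (0.03) and Cyld (0.00) did not pass.

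Short promoter stretches of genes that rose show what the letters around NF-kB motifs look like; they were picked after the matches were seen. The sequences are RefSeq promoters of GRCm38.p6, 5′ to 3′ on the gene's strand, with the NF-kB motif in capitals. The neutrophil chemokine genes Cxcl3 (chr5:90785993-90786072), Cxcl2 (chr5:90903767-90903846) and Cxcl1 (chr5:90891139-90891218), all on the plus strand, carry the same 11 capital letters 73, 97 and 71 bases before their starts. Il6 (chr5:30013035-30013113, plus strand) has its match 44 bases before the start, Nfkbia (chr12:55492648-55492711, minus strand) 29 bases and Tnip1 (chr11:54962954-54963033, minus strand) 58 bases before it.
Cxcl3: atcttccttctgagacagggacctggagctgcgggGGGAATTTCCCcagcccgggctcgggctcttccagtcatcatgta
Cxcl2: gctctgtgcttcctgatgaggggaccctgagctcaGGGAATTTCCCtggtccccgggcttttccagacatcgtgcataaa
Cxcl1: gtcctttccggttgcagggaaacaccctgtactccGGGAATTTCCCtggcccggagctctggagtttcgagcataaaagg
Il6: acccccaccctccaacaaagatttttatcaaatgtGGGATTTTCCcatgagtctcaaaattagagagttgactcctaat
Nfkbia: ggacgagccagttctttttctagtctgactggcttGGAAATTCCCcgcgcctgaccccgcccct
Tnip1: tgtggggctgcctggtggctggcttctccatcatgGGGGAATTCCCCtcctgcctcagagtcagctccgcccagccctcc

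Matches were counted on both strands in windows from 250 bases before to 50 after the start, for the 8953 tested genes with 1 such window. An NF-kB match was in 14 of 54 windows of genes raised at least 8-fold (25.9%), in 40 of 351 raised at least 2-fold (11.4%), in 7 of 291 lowered at least 2-fold (2.41%) and in 447 of all 8953 (4.99%). The AP-1 motif TGANTCA was in 14.8%, 9.69%, 7.22% and 5.61% of the same windows, and the TATA motif TATAAA in 24.1%, 13.1%, 6.87% and 8.92%. Within the NF-kB list, 7 of 14 windows held an NF-kB match, and within the chemokines 5 of 18. A match is a stretch of letters and not a measured binding site.

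**Figure D3:**
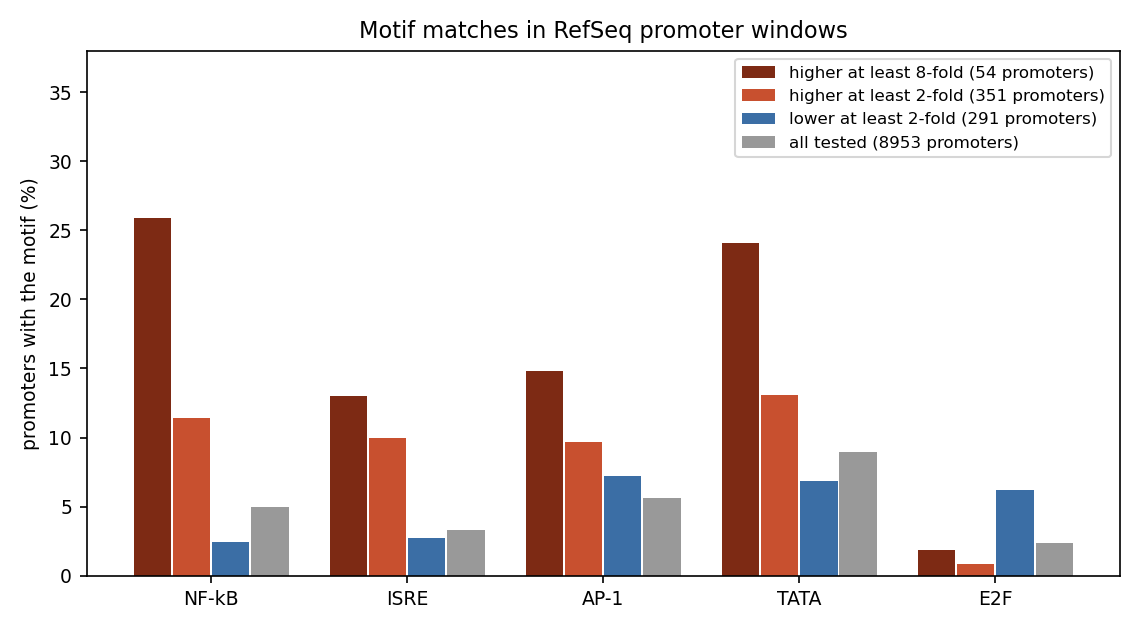
Bars give the share of promoter windows (percent, from 0) that hold each motif on either strand, for genes raised at least 8-fold, raised at least 2-fold, lowered at least 2-fold and all tested. NF-kB matches run from 25.9% to 2.41% across the changed groups against 4.99% of all, and the E2F motif runs the other way, 6.19% in the lowered genes against 2.33% of all.

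The classic early transcription factors moved in both directions at 4 h. Junb and Jund rose by 1.66 and 0.68, whereas Jun read 8.63, 8.70 and 8.77 with saline and 7.71, 7.70 and 7.58 with R848, a fall by 1.04, and Fos fell by 0.91. Batf, which pairs with JUN proteins in place of FOS, read 4.63, 5.12 and 4.93 with saline and 8.06, 7.95 and 7.88 with R848, the largest rise among AP-1 and ATF factors (3.07), and Jdp2 rose by 2.48. Atf3, an inhibitor of inflammatory genes, was lower by 0.46. Of 24 factors of this group tested, 13 were higher (54.2%) and 4 lower (16.7%), beside 14.6% and 23.6% of all genes. Egr2 fell by 0.86 with an adjusted p of 0.0298 and 1 high saline array (8.49 against 7.35 and 7.17), without which it changed by -0.45 (adjusted p = 0.145), Egr1 fell by 0.51, and Egr3 (-0.16) did not pass. Of 32 EGR, KLF, NR4A and other early factors tested, 18 were higher (56.2%) and 10 lower (31.2%). Among them, Ier3, Klf7 and Ets2 rose by 3.44, 2.40 and 1.66, and Klf10, Klf2 and the MYC antagonist Mxd4 fell (changes of -1.45, -0.97 and -1.90).

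Factors that set the myeloid state also moved in both directions. Within the C/EBP family, Cebpb rose by 2.25 and Cebpd by 2.56, whereas Cebpa read 6.95, 6.36 and 6.34 with saline and 5.0, 4.60 and 4.94 with R848. No array of 1 treatment reached those of the other, and Cebpa changed by -1.70. Spi1 (PU.1), the master factor of the lineage, rose by 0.65, the bHLH factors Lyl1 (-2.55) and Bhlhe41 (-2.05) fell, and Tfec rose by 2.30. Over the 30 members tested, 11 rose and 12 fell. Of the JAK-STAT genes, Jak2 read 7.48, 7.49 and 7.42 with saline and 10.33, 10.30 and 10.27 with R848. Stat5a rose by 1.86, Stat3 by 1.03, Stat2 by 0.95 and Irf1 by 1.27, and Irf2, Irf8 and the co-repressor Irf2bp2 fell (changes of -0.78, -0.40 and -2.55).

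Many cytokine ligands rose. Of 30 interleukins and growth factors tested, 18 were higher and 2 lower, with a median of 0.90. Il1b, the precursor of interleukin 1 beta, read 4.02, 4.10 and 4.11 with saline and 12.09, 12.12 and 12.13 with R848, from dim to near the top of the scale (8.04 ± 0.10, SE). Il1a rose by 6.17, while the receptor antagonist Il1rn, which blocks both, went from 8.84, 8.63 and 8.69 to 10.44, 10.52 and 10.55, a rise of 1.78. Il6, an acute-phase cytokine, read 3.27, 3.30 and 3.50 with saline, all dim, and 7.69, 7.64 and 7.33 with R848. The endothelin precursor Edn1 rose by 6.23.

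The cytokines that steer T cells differed in which subunit rose. Il12b, the p40 chain shared by IL-12 and IL-23, read 5.05, 4.79 and 5.02 with saline and 9.38, 9.43 and 9.31 with R848, a rise of 4.42. The partner chains Il12a and Il23a were on the array but did not pass the filter on dim rows. Both chains of IL-27 were measured and both rose, Il27 by 3.31 and Ebi3 by 2.15. Il10, which restrains macrophages, read 5.94, 5.92 and 5.63 with saline and 9.09, 9.09 and 8.67 with R848. Il18 rose by 2.26, Csf1 by 2.01, Csf3 by 1.45 and Il15 by 1.46. The angiogenic factor Vegfa fell by 1.13, with saline arrays at 8.06, 7.38 and 7.31.

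In the TNF superfamily, members rose and fell. Tnf read 8.73, 8.61 and 8.64 with saline and 11.92, 11.93 and 11.86 with R848, a rise of 3.24 ± 0.12 (SE). Cd40 and Fas, receptors for T-cell help and for death signals, rose by 4.34 and 3.74, Tnfsf9 by 2.93 and the TNF receptor Tnfrsf1b by 2.50. The decoy receptors Tnfrsf23, Tnfrsf22 and Tnfrsf26 fell (changes of -1.11, -0.47 and -0.72). Of 27 members tested, 12 rose and 6 fell.

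Chemokines rose in neighbouring blocks. Of 26 tested, 19 were higher and 1 lower (Cxcl14, by 0.41, which was no longer past the threshold after cyclic loess or centring on the tested genes), with a median of 1.35. Cxcl3, Cxcl1 and Cxcl2 are neighbours on chromosome 5 among the tested genes, and read 3.78, 4.09 and 3.73, then 4.26, 4.17 and 4.30, then 5.22, 5.95 and 5.71 with saline. With R848 the same genes read 10.06, 9.78 and 9.77, then 8.19, 8.25 and 8.08, then 10.10, 10.04 and 9.64. All 3 draw neutrophils, and their changes were 6.0, 3.93 and 4.30. The monocyte chemokines Ccl2, Ccl7, Ccl12 and Ccl8 on chromosome 11 rose by 1.49, 2.32, 4.02 and 1.35. Ccl12 read 4.86 ± 0.44 (SD, n = 3) with saline and 8.88 with R848, Ccl2 went from 9.42 ± 0.23 to 10.91, and rows of such similar genes may share signal. Ccl22, Cx3cl1 and Ccl17 on chromosome 8 rose by 4.12, 1.11 and 1.56.

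Not every chemokine changed to this extent. Ccl3 rose from 10.91 to 12.44 and Ccl9 from 12.01 to 12.46, while Ccl6 (0.17) and Pf4 (0.14) did not pass. Ccl5, which draws T cells, read 7.43, 7.80 and 7.55 with saline and 12.08, 12.07 and 11.92 with R848, a rise of 4.43. Of the ligands of CXCR3, which attract activated T cells, Cxcl10 rose by 4.62, Cxcl9 by 0.97 and Cxcl11 by 0.84.

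Receptor transcripts rose and fell. Of 48 G protein-coupled receptors tested, 17 rose (35.4%) and 20 fell (41.7%), beside 14.6% and 23.6% of all genes. The largest rises were in receptors for metabolites and peptides. Gpr84, a receptor for medium-chain fatty acids, read 5.91, 5.90 and 5.30 with saline and 11.25, 11.27 and 11.21 with R848 (5.54). Fpr2, a formyl peptide receptor, read 3.16, 3.57 and 3.92 with saline, all dim, and 8.83, 9.08 and 9.33 with R848 (5.53). Hcar2, the niacin and hydroxybutyrate receptor, rose by 4.14, Gpr31b by 3.06, Gpr18 by 2.65 and the nucleotide receptor P2ry2 by 1.94. S1pr1, which senses sphingosine 1-phosphate, fell the most in this group: it read 7.38, 7.87 and 7.82 with saline and 4.95, 5.04 and 4.78 with R848 (-2.77). Gpr183 (-2.10), a receptor for oxysterols, the cannabinoid receptor Cnr2 (-1.66) and the second C5a receptor C5ar2 (-1.36) fell too.

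The chemokine receptor genes, unlike their ligands, passed the threshold at shares near those of all genes. Of 15 tested, 3 rose (20%) and 3 fell (20%), beside 14.6% higher and 23.6% lower over all genes, and 9 did not pass. Cxcr4, which holds cells in the bone marrow, read 8.52, 8.25 and 8.62 with saline and 5.69, 5.67 and 5.46 with R848, a fall by 2.86. Ccr2, the receptor of Ccl2, fell by 0.92, and the atypical receptor Ccrl2 rose by 3.26. Among cytokine receptors, the IL-4 and IL-13 chains Il4ra and Il13ra1 rose by 2.58 and 2.10 and Csf3r by 2.45. The IL-6 receptor chains went the other way from their ligand: Il6ra read 9.10, 9.25 and 8.94 with saline and 7.31, 7.18 and 7.34 with R848 (-1.82), and the shared chain Il6st fell by 1.49. Il7r and Lifr fell (changes of -1.64 and -1.57), and of 34 chains tested 13 rose and 11 fell.

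Several inhibitors of G protein signalling were lower. The neighbours Rgs2, Rgs1 and Rgs18 on chromosome 1, which speed the shut-off of G proteins, fell (changes of -3.27, -1.87 and -1.86). Rgs2 read 9.66, 9.74 and 9.75 with saline and 6.74, 6.41 and 6.18 with R848, and its groups did not overlap. The arrestin-fold genes Arrdc3 and Txnip fell (changes of -2.96 and -1.51), while Arrdc4 of the same fold and the receptor kinase Grk3 rose by 1.06 and 1.57. Of 27 members tested, 4 rose and 14 fell (5 and 11 after cyclic loess and after centring on the tested genes), with a median of -0.24, beside 14.6% higher and 23.6% lower over all genes.

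Feedback on the MAP kinases split by enzyme. Dusp1, Dusp2 and Dusp16, nuclear or JNK- and p38-directed phosphatases, rose by 1.32, 3.43 and 2.75. Dusp6, the cytoplasmic ERK phosphatase, read 9.53, 9.63 and 9.54 with saline and 6.55, 6.17 and 5.97 with R848, a fall by 3.34 ± 0.19 (SE). The order of the groups was opposite in Dusp2, which read 5.41, 5.25 and 5.18 with saline and 8.77, 8.78 and 8.59 with R848. Other genes known to follow ERK activity were lower as well: Spry2 (-1.37), Spred2 (-1.13), Etv5 (-1.71), Etv1 (-1.43) and Ccnd1 (-1.98). Of 28 members of this list tested, 6 rose and 15 fell. Among the kinases, Map3k8 (TPL2) and Mapkapk2 (MK2), both needed for TNF production, rose by 1.94 and 1.84, and Mknk2 fell by 2.37.

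Other brakes on cytokine signalling moved in both directions. Socs3, which blocks receptors of the IL-6 type, read 4.78, 4.84 and 4.60 with saline and 9.43, 9.45 and 9.27 with R848 (4.64), and a second row of the gene rose by 2.58. Socs1 rose by 1.63 and Usp18, which damps interferon receptors, by 2.73. The lipid phosphatase Inpp5d (SHIP1) read 8.93, 9.12 and 8.97 with saline and 6.72, 6.65 and 6.63 with R848, and the phosphatase Ptpn22 fell by 1.42. Of 32 feedback inhibitors tested, 16 rose and 10 fell.

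The mRNA decay factors of the TTP family moved apart. Zfp36 (TTP), which binds AU-rich elements in cytokine mRNAs and speeds their decay, read 10.03, 10.04 and 9.64 with saline and 11.99, 11.71 and 11.61 with R848, a rise of 1.87. Its relatives Zfp36l1 and Zfp36l2 fell (changes of -2.80 and -3.50): Zfp36l2 read 9.50, 9.72 and 9.83 with saline and 6.29, 6.10 and 6.16 with R848. The groups did not overlap in any of the 3 genes. The endonucleases Zc3h12a (regnase-1) and Zc3h12c rose by 2.85 and 2.82 and their relative N4bp1 by 1.96, and Arid5a, which protects Il6 mRNA, rose by 1.19. Of 30 RNA-binding regulators tested, 13 rose (43.3%) and 8 fell (26.7%), beside 14.6% and 23.6% of all genes.

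Interferon-stimulated genes rose, and no interferon gene tested passed the threshold. Of 50 antiviral genes tested, 39 were higher and 0 lower, with a median of 0.80, and the count of higher genes ran from 38 to 43 over the scalings. Of the 10 type I, II and III interferon genes that passed the filter, 0 passed the threshold in limma's test in either direction and none had an unadjusted p under 0.05. Ifnb1 was dim on every array, between 3.17 and 3.29. Mx1, a GTPase that traps viral nucleocapsids, read 5.25, 5.77 and 5.23 with saline and 8.69, 8.19 and 8.40 with R848 (3.01). Mx2, Ifit1, Rsad2 and Isg15 rose by 2.72, 2.51, 1.93 and 1.21.

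The guanylate-binding proteins and immunity-related GTPases, which attack vacuoles of microbes, rose too. Of 14 tested, 12 were higher and 0 lower. Gbp5 read 4.13, 4.28 and 4.40 with saline and 9.68, 9.46 and 9.51 with R848 (5.28), and its neighbours on chromosome 3, Gbp7 and Gbp3, rose by 3.19 and 2.51. Gbp2b, of the same family, stayed between 4.34 and 4.57 on all arrays (-0.12, adjusted p = 0.291). Igtp and Irgm2 rose by 1.74 and 1.52. Of 14 PYHIN and Schlafen genes, 11 rose and 0 fell, led by Ifi205 (5.25). Members of these families resemble each other closely, so their rows may share signal.

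The interferon-response motif, GAAA and GAAA with 2 bases of any kind between them, was counted on both strands, and neighbouring matches can share letters. It was in 16 of 32 windows of the antiviral list and 6 of 7 of the GTPase list, against 35 of 351 windows of genes raised at least 2-fold (9.97%) and 293 of 8953 of all genes (3.27%). The stretches below, with matches in capitals, show the runs in Ifit1 (chr19:34640750-34640829, plus strand), Isg15 (chr4:156200852-156200931, minus strand) and Gbp5 (chr3:142496734-142496813, plus strand), whose first matches lie 104, 78 and 165 bases before the start. Ifit1 and Isg15 hold several matches in these windows and Gbp5 1.
Ifit1: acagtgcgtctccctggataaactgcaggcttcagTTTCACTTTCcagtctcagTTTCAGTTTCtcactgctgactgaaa
Isg15: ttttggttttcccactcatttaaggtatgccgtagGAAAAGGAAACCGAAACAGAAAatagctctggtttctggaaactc
Gbp5: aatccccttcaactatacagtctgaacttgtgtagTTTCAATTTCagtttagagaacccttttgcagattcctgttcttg

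Surface molecules for contact with T cells moved in both directions. Of 38 tested, 20 were higher and 9 lower, with a median of 0.30, beside 14.6% and 23.6% of all genes. Cd69, an early activation antigen, read 4.50, 4.39 and 4.31 with saline and 9.89, 9.94 and 10.07 with R848 (5.57). Icam1 rose by 3.25, the inhibitory ligand Cd274 (PD-L1) by 3.04 and Cd83 by 2.04, and Cd300lb and Havcr2 (TIM-3) fell (changes of -1.77 and -1.52). Antigen presentation genes changed by smaller amounts: of 17 class I genes 9 rose and 0 fell, with a median of 0.20. H2-Q10 led (1.72), but its row may share signal with other H2-Q genes, and a second, dim row changed by -0.05. Tap1 rose by 0.87. Of 16 class II and loading genes 4 rose and 5 fell, a split that turned to 6 and 3 after centring on the tested genes, and H2-Ab1 rose by 0.89. Among lectins and Fc receptors, Clec4e (Mincle), which senses mycobacterial glycolipid, rose by 4.70, the inhibitory Fc receptor Fcgr2b by 3.23 and the scavenger receptor Marco by 2.20. Tarm1, an activating receptor of myeloid cells, rose by 5.07.

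Survival and inflammasome genes rose and fell. Of 41 tested, 15 were higher (36.6%) and 13 lower (31.7%), beside 14.6% and 23.6% of all genes, with a median of 0.03. Bcl2a1a, an anti-apoptotic member of a family of near-identical copies, rose by 3.97. Birc3 rose by 2.41 and Cflar, which blocks caspase 8, by 1.92, while Bcl2 fell by 1.17. The inflammasome sensor Nlrp3 read 6.20, 6.13 and 6.48 with saline and 9.21, 9.18 and 9.04 with R848 (2.87), and Casp4, which senses cytosolic lipopolysaccharide, rose by 2.36. The Nlrp1 copies on chromosome 11 went down together: Nlrp1a (-1.04), Nlrp1b (-1.44) and the pseudogene Nlrp1c-ps (-2.80). These copies are similar in sequence, so their rows may not be independent.

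Transcripts of 3 enzymes that act in turn in prostaglandin E2 synthesis rose. Pla2g4a, which frees arachidonic acid, rose by 1.66, Ptgs2 (COX-2) by 8.03 and Ptges, which makes prostaglandin E2, by 2.46. Ptgs2 read 4.06, 3.76 and 4.01 with saline and 12.01, 11.98 and 11.93 with R848, from a dim level, and changed by 8.03. Hpgd (-1.28), which breaks prostaglandins down, the thromboxane synthase Tbxas1 (-0.94) and the leukotriene genes Alox5ap (-0.52) and Lta4h (-0.55) fell. Of 20 members tested, 6 rose (30%) and 8 fell (40%), beside 14.6% and 23.6% of all genes.

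Genes of antimicrobial metabolism rose. Acod1, which makes itaconate, read 4.43, 4.98 and 4.83 with saline and 11.54, 11.71 and 11.72 with R848 (6.91). Nos2, the inducible nitric oxide synthase, rose by 4.53, Gch1, which makes its cofactor, by 1.96, and the arginine carriers Slc7a2 and Slc7a1 by 1.96 and 1.01. The cystine carrier Slc7a11 rose by 4.09 from a dim level and Sod2 by 2.98. Of 24 members of this list tested, 15 were higher and 1 lower. Among acute-phase and metal-binding proteins, Saa3, Lcn2 and the copper protein Cp (ceruloplasmin) rose by 5.86, 4.57 and 4.10. The metallothioneins differed in size, Mt2 with 3.16 and Mt1, at 10.58 with saline, with 0.52. The iron exporter Slc40a1 fell by 1.62 and the zinc and iron importer Slc39a14 rose by 2.33.

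In glycolysis, sugar carriers and a regulator of phosphofructokinase rose most. Of 31 members tested, 10 rose and 7 fell (14 and 2 after centring on the tested genes). Pfkfb3, whose product activates phosphofructokinase, read 5.48, 5.39 and 5.84 with saline and 8.70, 8.87 and 8.77 with R848 (3.21). The hexose carriers Slc2a6 and Slc2a1 rose by 2.87 and 1.24, Hk2 by 1.13 and Hif1a by 0.84, and Gapdh (0.00) and Pgk1 (0.04) did not pass. Of 54 genes of oxidative phosphorylation and the TCA cycle, 42 did not pass, 3 rose and 9 fell, and the order of the counts turned after centring (9 and 6). Idh1 (-0.90), Sdha (-0.28) and Sdhb (-0.39) fell.

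Among lipid handling and lysosomal genes, more fell than rose. Of 34 genes of cholesterol efflux and lipid handling, 16 fell and 4 rose, with a median of -0.20 (11 and 5, with a median of -0.07, after centring on the tested genes), beside 23.6% lower and 14.6% higher over all genes. The carnitine transferase Cpt1a, which lets fatty acids into mitochondria, read 8.77, 8.72 and 8.73 with saline and 7.52, 7.48 and 7.40 with R848 (-1.27). Lpin1 (-1.47) and the sterol exporter Abcg1 (-0.65) fell, but Abca1 (-0.01) did not pass and their regulator Nr1h3 (LXR alpha) rose by 1.19. Of 53 lysosome and autophagy genes, 30 fell and 6 rose, with a median of -0.29, and 22 fell and 9 rose after centring. The autophagy receptors moved apart, Sqstm1 (p62) with a rise of 1.08 and Nbr1 with a fall by 1.08. In efferocytosis, the uptake of dead cells, Mertk and its ligand Gas6 fell (changes of -1.79 and -1.18) and Axl rose by 0.36.

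Replication genes fell nearly without exception. Of 55 genes of DNA replication and S phase tested, 51 were lower and 0 higher, with a median of -0.98, and 51 were lower under every scaling. The subunits of the MCM helicase, which unwinds DNA at origins, fell by similar amounts: Mcm2 (-1.54), Mcm3 (-1.33), Mcm4 (-1.59), Mcm5 (-1.31), Mcm6 (-1.56) and Mcm7 (-1.55). Mcm6 read 8.65, 8.95 and 8.97 with saline and 7.15, 7.48 and 7.25 with R848. The DNA methyltransferase Dnmt1, which copies methylation at the fork, fell the most in the list (8.54, 8.85 and 8.94 to 6.73, 6.67 and 6.70, a change of -2.08), followed by the polymerase subunit Pole2 (-1.91), the helicase Hells (-1.80) and the licensing factors Cdc6 (-1.71) and Cdt1 (-1.66).

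Mitotic genes were lower to a smaller extent. Of 51 tested, 41 fell and 0 rose, with a median of -0.67, and 35 to 40 fell with at most 1 rising under the other scalings. Kif23, a motor of the midbody, fell by 1.54, and Ndc80 (-1.24), Kif11 (-1.20), Bub1b (-1.05) and Ccna2 (-1.03) fell too. Cdk1 fell by 0.89, with 6.81, 7.16 and 7.61 on the saline arrays and 5.85, 6.54 and 6.51 on the R848 arrays. The D cyclins differed: Ccnd1 (-1.98) and Ccnd3 (-0.88) fell and Ccnd2 rose by 1.16. Wee1, the kinase that holds CDK1 back, fell by 2.00. Among genes that oppose division, 18 of 35 were lower and 5 higher (16 and 7 after cyclic loess and after centring on the tested genes), the lower ones including Rb1 (-1.11), Rbl2 (-1.16) and the stress gene Sesn1 (-2.26), while Gadd45b and Cdkn1a (p21) rose by 2.76 and 0.56.

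The E2F motif TTTNGCGC was in 18 of 291 windows of genes lowered at least 2-fold (6.19%), 3 of 351 raised at least 2-fold (0.855%) and 209 of 8953 of all (2.33%), and in 8 of 38 windows of the S-phase list. The motif TTTGAA is the core of the cell cycle homology region. It was in 27 of 40 windows of the mitotic list (67.5%) and in 1134 of 8953 of all (12.7%). Among changed genes it stayed near that share, in 14.1% of windows lowered and 11.7% of those raised at least 2-fold. Other lists held it often too: 6 of 10 windows of the PYHIN and Schlafen list and 55 of 152 of olfactory receptor genes (36.2%). The stretches below show the E2F matches of 2 helicase subunits, Mcm5 (chr8:75109321-75109398, plus strand) and Mcm6 (chr1:128359773-128359850, minus strand), 153 and 110 bases before their starts, where matches on both strands overlap.
Mcm5: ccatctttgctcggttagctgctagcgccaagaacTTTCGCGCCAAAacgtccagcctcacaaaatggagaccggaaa
Mcm6: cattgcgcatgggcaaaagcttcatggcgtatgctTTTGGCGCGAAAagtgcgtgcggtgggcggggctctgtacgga

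Genes of ribosome assembly rose by small amounts. Of 51 genes of ribosome biogenesis and RNA polymerase I, 29 were higher and 1 lower, none by 2-fold, with a median of 0.30 (0.31 to 0.43 under the other scalings). Rrs1 rose by 0.89, Wdr43 by 0.69 and the helicase Ddx21 by 0.61. Of 42 cytosolic ribosomal protein genes, 40 did not pass and 2 rose, Rps20 by 0.57 from a dim level and Rps9 by 0.26, and 8 rose after centring on the tested genes. Of 45 proteasome and ubiquitin genes, 20 rose and 2 fell, led by the 20S subunit Psma6 (1.33). Tma16, a ribosome assembly factor, read 4.42, 5.0 and 4.52 with saline and 8.84, 9.08 and 9.08 with R848 (4.35), far outside the range of the biogenesis list.

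**Figure D4:**
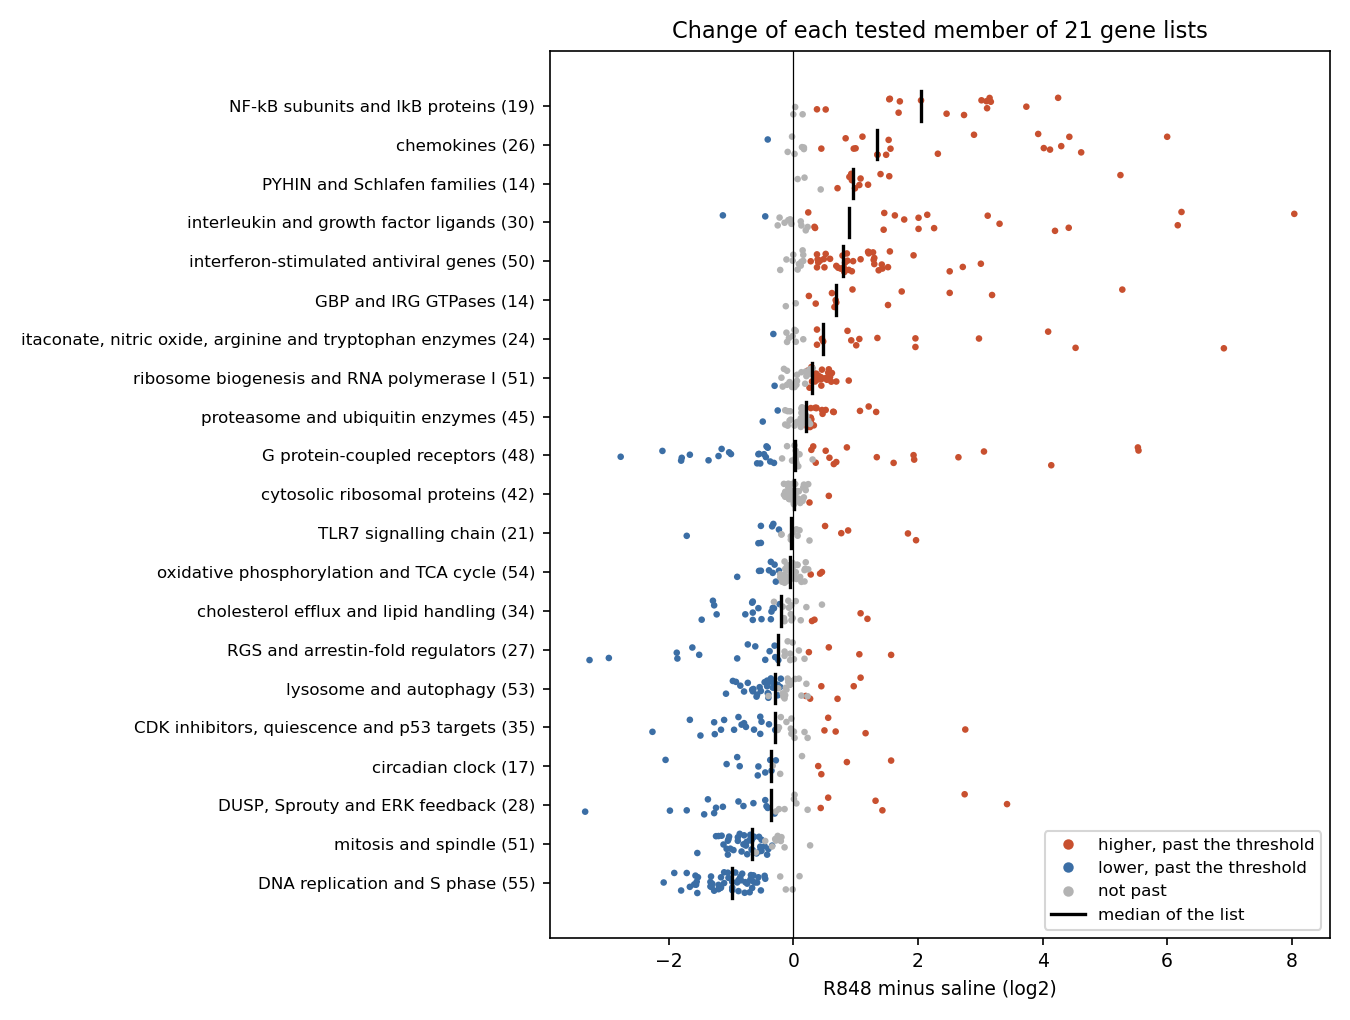
Each point is 1 tested gene of the list named at the left, with the number tested in brackets, the horizontal axis is its change with R848 (log2, R848 minus saline) and the black bar is the median of the list. Medians run from 2.05 for NF-kB subunits and IkB proteins to -0.98 for DNA replication and S phase.

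Small GTPase regulators, endosomal traffic and the matrix changed in both directions and held several of the largest falls. Rasgrp3, an exchange factor for Ras and Rap that follows diacylglycerol, read 8.45, 8.24 and 8.45 with saline and 4.80, 4.79 and 4.44 with R848, the largest fall on the arrays (-3.70 ± 0.12, SE). The GTPase-activating protein Rasa3 fell by 2.92, and Rapgef2 and Ralgds rose by 2.99 and 2.44. The CDC42 effectors Cdc42ep2 and Cdc42ep3 changed by 2.62 and -2.13. Of the sorting nexins, which coat endosomal tubules, Snx30, Snx24 and Snx29 fell (changes of -3.15, -3.03 and -2.04). Snx30 read 8.43, 8.60 and 8.59 with saline and 5.40, 5.46 and 5.30 with R848, and the SNARE protein Stx11 rose by 3.15.

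In the matrix and coagulation group, the metalloproteinases Mmp14, Mmp13 and Mmp9 rose by 4.56, 3.20 and 2.40 and the aggrecanase Adamts4 by 3.71. Urokinase and its inhibitor moved apart: Plau read 11.03, 10.81 and 10.92 with saline and 8.75, 8.75 and 8.49 with R848 (-2.26), and Serpinb2 (PAI-2) went from 3.85, 3.92 and 3.80 to 8.25, 8.31 and 8.23 (4.41). Both sets of arrays were far apart, in opposite order. The urokinase receptor Plaur and tissue factor F3 rose by 1.37 and 1.71.

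Other large falls were spread over many roles. Kitl (stem cell factor) read 7.29, 7.52 and 7.40 with saline and 4.84, 4.82 and 4.66 with R848 (-2.63). Gcnt1 (-2.61), a glycan-branching enzyme, the late endosomal GTPase Rab7b (-2.61), the transcription cofactor Lbh (-2.79), the palmitoyltransferase Zdhhc14 (-2.51) and the ceramide kinase Cerk (-2.38) were lower. The carrier Slc46a3 and the small GTPase Arl11 fell (changes of -2.31 and -2.22), as were Mtmr10 (-2.31), Tmem273 (-2.29) and Tmem86a (-2.26).

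**Figure D5:**
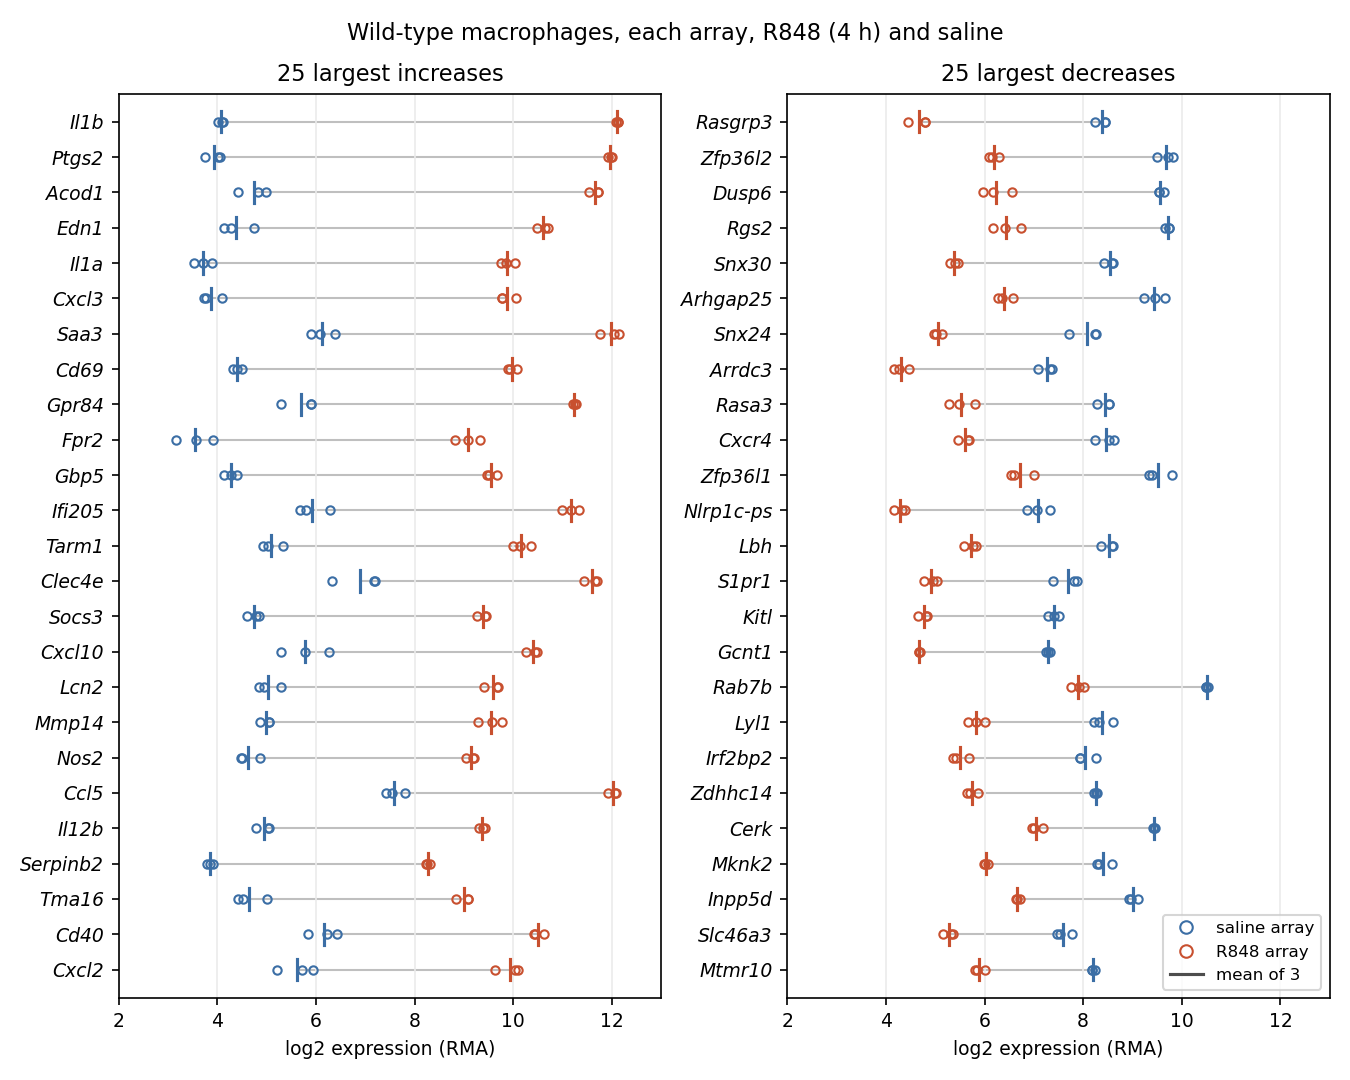
Each row is a gene, each circle 1 array, the vertical bars are means of 3 arrays and the horizontal axis is log2 expression. The genes were chosen from those whose 3 R848 and 3 saline arrays do not overlap, and the increases, up to 8.04, exceed the decreases, up to -3.70.

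Chromatin and clock genes were lower more often than higher, as were all genes (23.6% lower and 14.6% higher). Of 52 chromatin modifiers tested, 20 fell (38.5%) and 9 rose (17.3%), an excess that shrank to 16 and 14 after centring on the tested genes. Tet2, which oxidises methylated DNA, read 7.65, 7.69 and 7.53 with saline and 10.04, 9.95 and 9.91 with R848 (2.34), whereas its relative Tet3 fell by 1.03, and with Dnmt1 the methyltransferase Dnmt3a fell by 1.26. The demethylases Kdm6b and Jmjd1c changed by 1.24 and -2.11, and the deacetylase Hdac5 fell by 1.65. Of 17 clock genes, 10 fell (58.8%) and 4 rose (23.5%), and 7 fell and 5 rose after centring. Bhlhe41, Dbp and Arntl (BMAL1) fell (changes of -2.05, -1.07 and -0.57), and Nfil3, Cry2 and Clock rose by 1.57, 0.86 and 0.40.

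MicroRNA genes are also on the array, where a row reads transcripts or precursors of the gene and not the mature microRNA. Of 188 rows tested, 27 were higher and 17 lower, shares of 14.4% and 9.04% beside 14.6% and 23.6% of all genes, and 56 were higher after centring. Mir146, the gene of miR-146a, which targets Irak1 and Traf6 mRNAs, read 3.22, 3.15 and 3.18 with saline, all dim, and 5.33, 5.45 and 5.09 with R848 (2.11 ± 0.11, SE). Mirlet7e rose by 2.20 from 4.03, 4.48 and 3.92, with a second, dim row at 0.32, and Mirlet7i by 1.00. The mature sequences, from RefSeq on GRCm38.p6, are shown with the seed, bases 2 to 8, in capitals. Some members that rose together share it. Both let-7e-5p and let-7i-5p have 1 seed, and miR-221-3p and miR-222-3p, whose genes Mir221 and Mir222 rose by 0.67 and 0.66, have another. The seeds of miR-146a-5p and of miR-511-3p, whose gene Mir511 fell, are in no other sequence shown. Of the 44 rows past the threshold, 40 had a RefSeq entry.
let-7e-5p: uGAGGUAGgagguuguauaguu
let-7i-5p: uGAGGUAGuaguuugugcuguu
miR-146a-5p: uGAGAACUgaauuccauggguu
miR-221-3p: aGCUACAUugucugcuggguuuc
miR-222-3p: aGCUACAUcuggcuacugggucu
miR-511-3p: aAUGUGUAgcaaaagacaggau

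Rows of other microRNA genes fell. Mir23b read 7.27, 7.58 and 7.63 with saline and 5.69, 5.95 and 5.88 with R848 (-1.65), and Mir23a, its paralog on another chromosome, changed by -0.89 with overlapping arrays and an adjusted p of 0.0275, which rose to between 0.082 and 0.106 without either of saline arrays 1 and 2 or R848 arrays 2 and 3. Mir511, which lies within the Mrc1 gene, changed by -1.22 and Mrc1 itself by -0.76. Mir5123 and Mir763 fell (changes of -1.46 and -1.16) and Mir3095 rose by 1.34.

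Genes with more than 1 row did not always agree between rows. The row of highest mean was used for each gene, and second rows of Dusp6 (0.04), Etv5 (-0.05), Cdc42ep3 (-0.05) and Rgs2 (-0.20), all but that of Etv5 dim, differed little between the groups. So did second rows above the dim limit of Alox5ap (6.25 with saline, 0.04) and Bcl2 (4.40 with saline, -0.03), whose rows of highest mean changed by -0.52 and -1.17. A second row of Irf2bp2, at 6.36 with saline, changed by -0.30 against -2.55, and a second row of H2-Q5, at 6.11, by 0.04 against 1.36. Second rows of Slc2a1 (4.84 with saline), Etv1 (4.62) and Cd24a (4.60) changed by 0.18, -0.33 and -0.22, less than the rows used. Those of Socs3 (2.58), Zfp36l1 (-0.80) and Ebi3 (0.53) kept the sign.

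The same treatment in cells with the Rasgef1b deletion was set beside the wild-type changes. The genes compared were chosen for large changes in wild type, and both sides shared 1 estimate of the spread. The share of all genes past the threshold in the deleted cells is not given here, so the count below has no background beside it. Of the 1016 genes that changed at least 2-fold in wild type, 1013 passed the threshold in the same direction in those cells, the exceptions being Car2, Cd24a and Ifi208, and in 1 of them, Cxcl1, the 2 responses differed past the threshold (2 of all genes, 0.0142%). Rasgef1b, the gene the study deleted, read 9.03, 9.19 and 9.14 with saline and 9.84, 9.84 and 9.69 with R848 in wild type, a rise of 0.67 ± 0.21 (SE, adjusted p = 0.0212). The adjusted p was 0.0557 to 0.0614 without saline array 1, R848 array 1 or R848 array 2.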

How the data were processed

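Total RNA was read on whole-transcript mouse gene arrays. Per the submitters' processing notes, the authors used Affymetrix Expression Console and RMA, so the deposited values are log2 intensities with background corrected and arrays normalised together; no source used here gives versions or build. Of 34472 rows, 23521 carried 1 gene symbol, 1814 several and 9137 none, and only the first were used. Per gene the row of highest mean was kept, and genes above the 40th percentile (4.31 to 4.35) on at least 3 of 12 arrays were tested, 14079 of 22180. Limma (3.58.1, R 4.3.3; lmFit and eBayes, 12 arrays in 4 groups, no covariate) gave changes, standard errors and Benjamini-Hochberg adjusted p-values. On simulated data of that size, 99.5% of 200 genes changed by 1 and 85.5% of those changed by 0.5 were recovered, with 7 false calls. The number of arrays limits the precision.

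The members and gene lists were chosen with earlier results of these data known. Genes named are the 30 largest increases and decreases that did not overlap, up to 8 per list by size, members of the TLR7, NF-kB and marker lists, the changed microRNA genes, the highest-level genes, second rows and the targeted gene; the text prints some of these, and others beside a family were chosen after their values were seen. Promoter and microRNA sequences are RefSeq's (GRCm38.p6), and 10944 of the tested genes had a promoter entry. Alternatives covered filters, scalings, array weights, a replicate block and leaving out each array.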

Additional observations from a re-analysis of the deposited data

Results flagged for a closer look

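For 2 genes the R848 response differed between wild type and the Rasgef1b-deleted cells by limma's interaction test. Cxcl1, the neutrophil chemokine, rose by 3.93 in wild type and by 0.90 in the deleted cells, a difference of -3.03 (knockout minus wild type, adjusted p = 4.58e-06). The difference ran from -2.97 to -3.08 over the alternatives. Enpp4, an ectonucleotidase, changed by 0.21 in wild type (adjusted p = 0.0704, and 0.00656 to 0.0401 after centring on the tested genes, after cyclic loess, with the 6 wild-type arrays alone or with the replicate block), and by 1.13 in the deleted cells, a difference of 0.91 (adjusted p = 0.0226). Without any single wild-type array its adjusted p was 0.0612 to 0.122, so the call rests on all 6 arrays.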

How the results depend on the processing

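All 1016 changes of at least 2-fold kept their threshold under the other spread estimate, no filter, both median centrings, cyclic loess, the 6 wild-type arrays alone, array weights, the replicate block, every row and each left-out array. Their size made this outcome likely beforehand. The 2-fold count itself moved, to 979 with cyclic loess and 984 with centring on the tested genes. The stricter filter tested 9659 genes and kept 993 of the 1016. Testing against a minimum log2 change of 1 called 524, all of them among the 1016. Over all genes tested, leaving out each wild-type array gave 4717 to 5135 changed genes, 1804 to 1950 higher and 2883 to 3268 lower against 5387, 2062 and 3325. Centring on the tested genes, chosen after seeing the data, called 3821 higher and 2319 lower, and cyclic loess 2613 and 2773; the cause was not tested. The difference between wild-type and knockout responses was called in 1 gene without any one wild-type array, the lowest and the highest count, 1 with the minimum change and 3 with array weights, against 2. Residuals of same-numbered saline and R848 arrays correlated at 0.25, -0.06 and 0.23 in wild type and 0.27, 0.17 and 0.28 in knockout; 1 pair was under 0.1, and wild-type saline array 2 correlated best with R848 array 1 (0.12), so the numbers were not taken as pairs. With the replicate number as a block 5676 genes were called, 2181 higher and 3495 lower. Genes near the array floor have only compressed changes. Of the genes named in the text, 9 lost and 8 gained a call after centring on the tested genes, and 5 lost one after cyclic loess, among them Cxcl14, Egr2, Irak1 and Vwf under both; none reversed. Single left-out arrays also ended the calls of Axl, Cd4, Otulin, Rps9 and Sdha (adjusted p of 0.0514 to 0.0682).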
